A study of Homo sapiens with 10 samples.

Results

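Cytosolic ribosomal proteins are the protein parts of the ribosome, the particle that translates messenger RNA. The 82 genes described here were chosen by symbol from the 13527 features of the deposited shCon and shSOX4 table: RPL or RPS followed by a number, with an optional A, X or L and a further number, together with RPSA, RPLP0, RPLP1 and RPLP2. Of these, 50 encode proteins of the large subunit and 32 of the small subunit, and 5 of them are diverged copies of another member (RPL7L1, RPL22L1, RPL26L1, RPL39L and RPS27L). RNA-seq of poly-A RNA compared untreated DU145 cells, a human prostate cancer line, carrying a scrambled hairpin (shCon, 3 libraries) with the same line after SOX4 knockdown by a hairpin (shSOX4, 3 libraries). All 6 libraries come from this single line. The labels do not say whether the knockdown line is a clone, how many hairpins were used, or that each library is a culture of its own. The p-values therefore weigh differences against a spread among libraries that may be purely technical. The ATAC-seq libraries of the series were not analysed here.

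Each ribosome holds a single copy of nearly every ribosomal protein, and cells make the proteins in matched amounts, removing those left unassembled. Their messenger RNAs typically start with a C followed by an unbroken run of C and T, the 5′ terminal oligopyrimidine (TOP) motif. Through this motif the kinase mTOR and the RNA-binding protein LARP1 control their translation together, so transcript levels need not follow protein output. Ribosomal protein genes have many processed pseudogenes of near-identical sequence. How reads were divided between gene and pseudogene is not given in the sources used, so every level below carries that uncertainty.

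RefSeq's promoter table (GRCh38.p14) held an entry for 66 of the 82 genes, 11 of them with more than 1 start. The bases around the start are shown for genes that rose most, for the 3 that fell and for 2 of the stalk, to let the presence or absence of the TOP run be read beside the direction of change. Each stretch runs 5′ to 3′ on the gene's strand from 10 bases before the annotated start to 20 after it. Capitals mark the unbroken run of C and T from the start, where it begins with C and has at least 5 bases. Where several starts are listed, the start with the longest run is shown.
RPS4X (chrX:72277229-72277258, minus strand): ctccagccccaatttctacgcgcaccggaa
RPL14 (chr3:40457329-40457358, plus strand): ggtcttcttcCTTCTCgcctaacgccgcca
RPL11 (chr1:23691796-23691825, plus strand): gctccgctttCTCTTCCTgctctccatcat
RPS3A (chr4:151099618-151099647, plus strand): cccacttccgCCCTTTTggctctctgacca
RPL36A (chrX:101391001-101391030, plus strand): ctcgcggtttCTTTCTTTCCgcgccgatag
RPL22 (chr1:6199576-6199605, minus strand): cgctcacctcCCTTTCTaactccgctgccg
RPL39 (chrX:119791611-119791640, minus strand): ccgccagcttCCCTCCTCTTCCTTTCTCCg
RPS13 (chr11:17077648-17077677, minus strand): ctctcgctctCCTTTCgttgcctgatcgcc
RPS27L (chr15:63157458-63157487, minus strand): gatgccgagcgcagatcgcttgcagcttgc
RPL13 (chr16:89560672-89560701, plus strand): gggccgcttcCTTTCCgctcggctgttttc
RPL3 (chr22:39319604-39319633, minus strand): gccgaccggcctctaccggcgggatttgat
RPS28 (chr19:8321486-8321515, plus strand): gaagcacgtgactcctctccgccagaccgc
RPLP0 (chr12:120201092-120201121, minus strand): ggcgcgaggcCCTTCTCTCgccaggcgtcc
RPLP2 (chr11:809957-809986, plus strand): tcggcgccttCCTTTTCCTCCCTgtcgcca

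Such a run was present at an annotated start of 47 of the 66 ribosomal protein genes (71.2%) and of 1404 of the 27305 genes in the promoter table (5.14%). In these letters RPL13, which fell, has the run, as do RPLP0 and RPLP2, which were not called, and most of the genes that rose. RPL3 and RPS28 fell without a run that meets this rule, while RPS4X and the copy RPS27L rose without one. The rule depends on the exact annotated start. RPL3 starts with a run of 4 bases, short of the 5 required. In RPS28 a run of C and T begins at the base after the annotated start. How exact the annotated starts are was not tested. Of the 47 genes with the run 17 were called higher and 1 lower. Of all 66 members with an entry 25 were called higher and 3 lower, and over all features 17% were higher and 15.8% lower. The median log2 fold change was 0.30 with the run against 0.28 for the members without it.

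Totals were 31189910 to 43361609 counts per library. SOX4 was lower in every shSOX4 library (4.55, 6.44 and 6.01 CPM, counts scaled to a common library size) than in any shCon library (12.9, 10.1 and 8.48 CPM) (log2 fold change -0.89, adjusted p = 0.0111, edgeR); without shCon 1 the adjusted p was 0.0598. On the second principal component shCon 3 and shSOX4 1 stood apart from the other 4 libraries, so results below are also given without this pair where it matters. Of 10 epithelial markers 9 had a row, of which KRT8, KRT18 and no other rose and 4 fell, and their summed level was 4674 to 7414 CPM in shCon and 9004 to 10234 CPM in shSOX4. Of 6 leukocyte markers 1 had a row (summed 1.27 to 4.40 CPM over the 6 libraries). Of 6 fibroblast markers, LUM and COL1A1 had a row and summed to 1.27 to 1.87 CPM in shCon and 5.77 to 11.4 CPM in shSOX4. Of 5 endothelial markers CDH5 alone had a row, at 0.525 to 0.942 CPM in shCon and 4.70 to 6.62 CPM in shSOX4. The part of these shifts in the results below was not tested.

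Ribosomal protein transcripts took up a larger part of the RNA in the knockdown libraries. The 82 genes held 12.8%, 13.4% and 12.9% of all counts in shCon 1, 2 and 3 and 15.8%, 14.2% and 14.7% in shSOX4 1, 2 and 3. All 3 knockdown libraries lay above all 3 controls, with means of 13.0 ± 0.345% and 14.9 ± 0.813% (SD, n = 3 each). The part held by the large subunit went from 8.03 ± 0.253% to 8.89 ± 0.425% and that of the small subunit from 5.01 ± 0.156% to 5.99 ± 0.388% (SD, n = 3 each). The ratio of large to small subunit counts was 1.61 ± 0.0563 in shCon and 1.48 ± 0.0247 in shSOX4 (SD, n = 3 each) and was lower in every knockdown library than in any control. These are parts of a whole, and in bulk RNA a larger share of counts cannot be told apart from less of the other RNA, or more RNA per cell from more cells of a type.

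**Figure D1:**
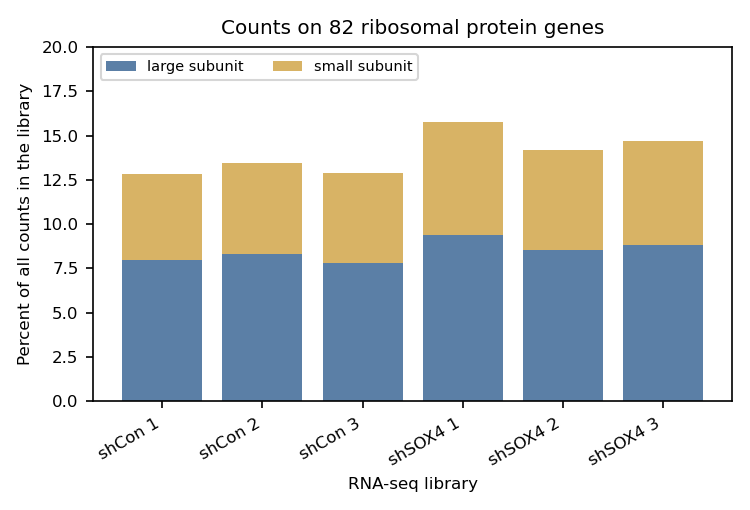
Percent of all counts in each of the 6 RNA-seq libraries (horizontal axis) that fell on the 82 ribosomal protein genes, stacked by subunit. The shCon bars reach 12.8 to 13.4% and the shSOX4 bars 14.2 to 15.8%, with shSOX4 1 the highest.

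Gene by gene the group moved unevenly. With levels scaled to library size by edgeR's TMM method and a Benjamini-Hochberg adjusted p under 0.05 over all features, 31 of the 82 genes rose (37.8%), 3 fell (3.66%) and 48 did not pass. Over all 13527 features 32.8% were called, 17% higher and 15.8% lower. The median log2 fold change, shSOX4 relative to shCon, was 0.28 over the 82 genes, against -0.01 over all features, and 65 genes had a value above zero. In 41 of the 82 genes (50%) all 3 knockdown values lay above all 3 control values, against 23.1% of all features; 4 genes lay wholly below, against 23.9%. Other abundant features did not show this direction: of the 500 most abundant other features 11.8% were called higher and 17% lower, with a median of -0.10. By subunit, 18 of 50 large subunit genes rose and 2 fell (median 0.27), and 13 of 32 small subunit genes rose and 1 fell (median 0.35); a difference between the subunits was not tested. The number called higher was 19 without shCon 1, 19 without shCon 2 and 20 without shSOX4 3. Over all features these fits called 14.7%, 13.3% and 12.4% higher. The number lower was 1 without shCon 2 and 0 without shSOX4 2, where 12.2% and 8.12% of all features were lower. Without shCon 3 and shSOX4 1 together, 36 rose and 3 fell, including all 31 and all 3 of the genes above. That fit called 21.4% of all features higher and 19.5% lower. By the authors' deposited table, at an adjusted p under 0.05, 32 of the genes are higher and 3 lower, among them each of the 31 and 3; the additional gene there is RPL31 (log2 fold change 0.44, adjusted p = 0.0499 in the authors' deposited table; 0.45, adjusted p = 0.0563, edgeR).

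**Figure D2:**
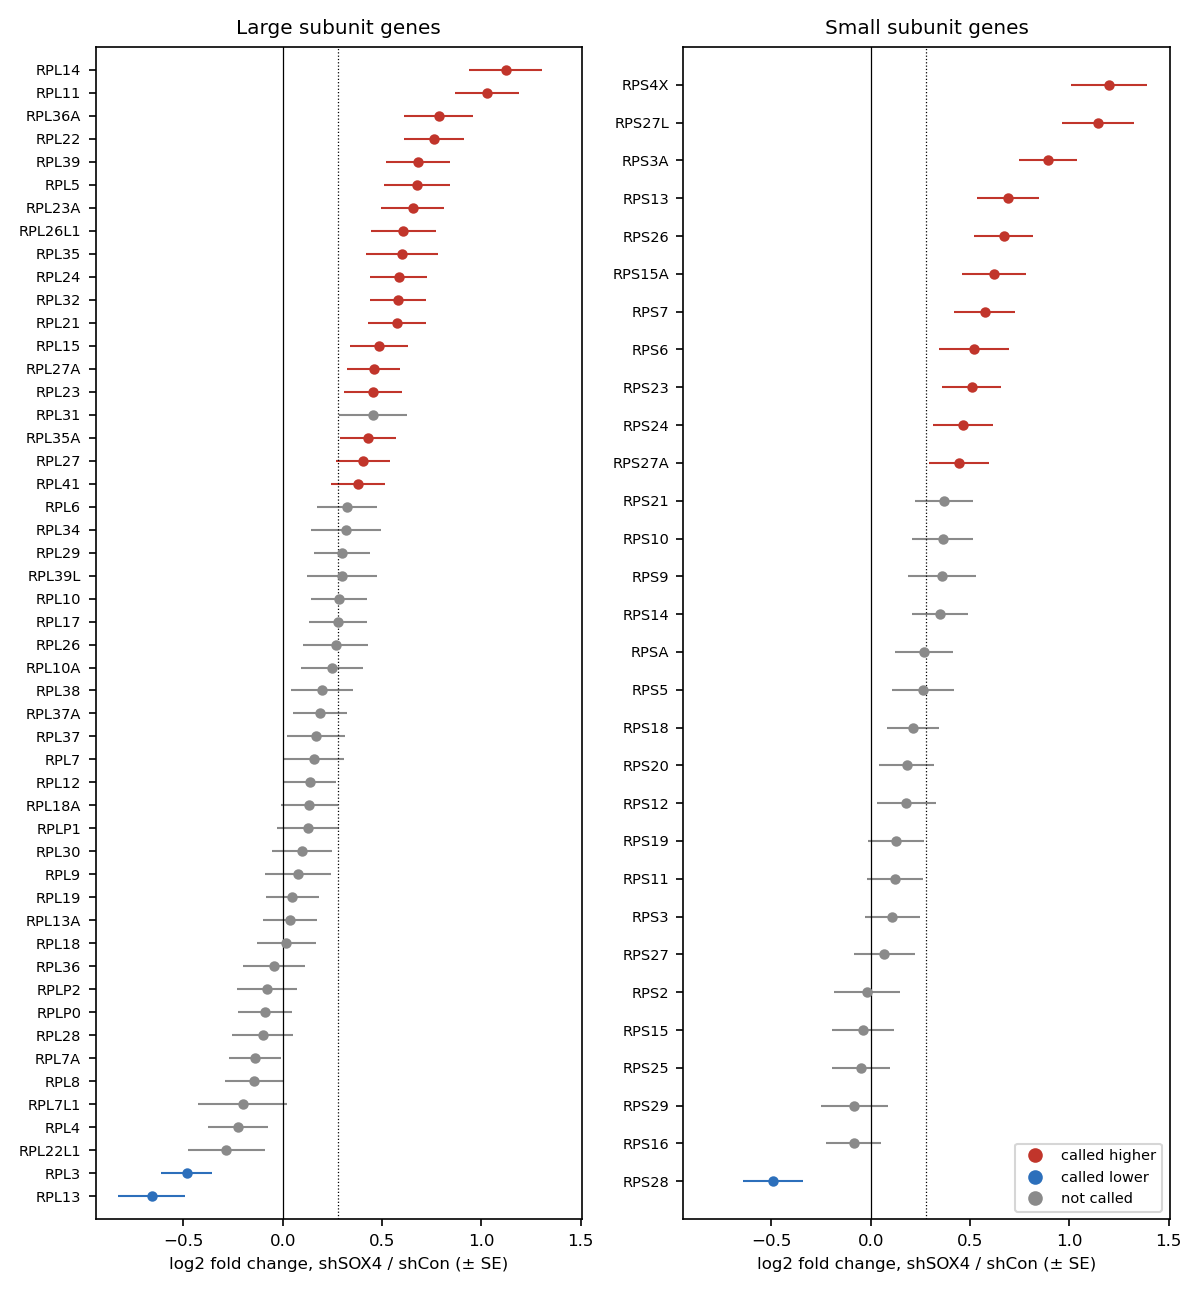
Log2 fold change of shSOX4 over shCon (horizontal axis, points with the standard error of the edgeR fit) for large subunit genes (left) and small subunit genes (right), 80 of the 82 being drawn, ordered by value. Red marks genes called higher (29 drawn), blue the 3 called lower, grey those not called, and the dotted line the median of 0.28; values run from -0.66 for RPL13 to 1.20 for RPS4X.

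In the large subunit, both protein partners of 5S ribosomal RNA rose. RPL11 and RPL5 join that RNA in a particle that enters the large subunit and, when left free, binds and blocks the ubiquitin ligase MDM2. RPL11 (ENSG00000142676) stood at 706, 660 and 548 CPM in shCon 1, 2 and 3 and at 1127, 1279 and 1491 CPM in shSOX4 1, 2 and 3. The lowest knockdown value lay well above the highest control, and the level rose by 1.03 on the log2 scale (SE 0.161, 95% interval 0.68 to 1.37, adjusted p = 0.000387, edgeR). For RPL5 (ENSG00000122406) the values were 650, 585 and 487 CPM in shCon and 772, 909 and 1071 CPM in shSOX4, without overlap, a rise of 0.68 (SE 0.168, adjusted p = 0.00801, edgeR). Both calls held in all 17 alternatives. DU145 is known to carry mutant p53, the main target of MDM2.

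RPL14 (ENSG00000188846), a large subunit protein, had the largest rise of that subunit. Its levels were 355, 304 and 266 CPM in shCon 1, 2 and 3 and 513, 706 and 794 CPM in shSOX4 1, 2 and 3, with shSOX4 1 the lowest of the knockdown values yet above every control. The log2 fold change was 1.12 (SE 0.184, 95% interval 0.73 to 1.52, adjusted p = 0.00055, edgeR). On log2(FPKM + 1) it was 2.00, because the ratio of count to FPKM for this gene differed by up to 2.79 times between libraries, the most of any member; its size is therefore less certain than its direction.

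Proteins at the exit tunnel, through which the new chain leaves the ribosome, were taken as a list of 7 of the genes. Of these 3 were called higher (42.9%) and 0 lower, beside 37.8% and 3.66% over all 82 members and 17% and 15.8% over all features. Their median log2 fold change was 0.45, against 0.28 over the 82, and 6 had a value above zero. In 5 of the 7 (71.4%) all knockdown values lay above all control values, against 50% of the 82 and 23.1% of all features. A difference between the list and the other members was not tested. RPL39, a small protein that lines the tunnel, stood at 348, 375 and 366 CPM in shCon and at 680, 472 and 593 CPM in shSOX4 (log2 0.68, adjusted p = 0.0065, edgeR). RPL23A, the docking site of factors that receive the new chain, stood at 1151, 927 and 840 CPM in shCon and at 1370, 1668 and 1554 CPM in shSOX4 (log2 0.65, adjusted p = 0.00679, edgeR). In neither gene did the groups overlap. RPL35, the member with the highest mean FPKM (6676), stood at 2146, 2623 and 3076 CPM in shCon and at 5052, 3447 and 3396 CPM in shSOX4, so that its rise of 0.60 (adjusted p = 0.0203, edgeR) leaned on shSOX4 1; without that library it was 0.40 (adjusted p = 0.0564) and without shCon 1 it was 0.48 (adjusted p = 0.0684). The remaining genes of the list, RPL31 (0.45, adjusted p = 0.0563), RPL17 (0.28, adjusted p = 0.155), RPL19 (0.05, adjusted p = 0.811) and RPL4 (-0.22, adjusted p = 0.271, all edgeR), did not pass.

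RPL36A and RPL22 also rose clearly. RPL36A, encoded on the X chromosome, stood at 423, 482 and 493 CPM in shCon and at 965, 630 and 813 CPM in shSOX4, a rise of 0.78 (SE 0.172, adjusted p = 0.0038, edgeR) with no overlap. RPL22, an RNA-binding protein of the subunit surface, stood at 345, 341 and 295 CPM in shCon and at 535, 519 and 610 CPM in shSOX4, among the tightest pairs of groups, a rise of 0.76 (SE 0.152, adjusted p = 0.00207, edgeR). The other large subunit genes called higher had log2 fold changes of 0.38 to 0.61: RPL26L1 (0.61), RPL24 (0.58), RPL32 (0.58), RPL21 (0.57), RPL15 (0.48), RPL27A (0.46), RPL23 (0.45), RPL35A (0.43), RPL27 (0.40) and RPL41 (0.38), the last encoding the smallest protein of the ribosome. None of these 10 had overlapping groups, which adds little to the calls, since only 1 of the 31 genes called higher did. Over all features 23.1% had every knockdown value above every control value. RPL24, RPL32 and RPL21 passed in all 6 fits that left out 1 library. RPL26L1 was lost only without shSOX4 3 (adjusted p = 0.0504), and the other 6 were lost in 3 to 5 of these fits, with adjusted p values of 0.0502 to 0.131.

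A pair of large subunit genes fell. RPL13 (ENSG00000167526) stood at 2437, 1707 and 2569 CPM in shCon 1, 2 and 3 and at 1588, 1249 and 1410 CPM in shSOX4 1, 2 and 3. The groups did not overlap, although shCon 2 came close to shSOX4 1, and the level fell by 0.66 on the log2 scale (SE 0.171, 95% interval -1.03 to -0.30, adjusted p = 0.00986, edgeR). RPL3 (ENSG00000100316), which reaches from the surface to the peptidyl transferase centre, stood at 4125, 4529 and 4507 CPM in shCon and at 3361, 2981 and 3067 CPM in shSOX4. Every knockdown value was below every control, 71.5% of the mean remained, and the fall was 0.48 (SE 0.13, adjusted p = 0.0118, edgeR). Neither call was secure: without shSOX4 2 the adjusted p was 0.0531 for RPL13 and 0.0559 for RPL3, and RPL3 also missed the threshold without shCon 2 (0.0683) and without shSOX4 3 (0.0544).

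The stalk, which recruits the GTPases that drive translation, was not called. RPLP0, its base, stood at 6652, 7720 and 8441 CPM in shCon and at 6806 to 7930 CPM in shSOX4 and was the member with the most counts in all 6 libraries. Its log2 fold change was -0.09 with a 95% interval of -0.38 to 0.20, and the values of RPLP2 (-0.08, interval -0.40 to 0.24), RPLP1 (0.13, interval -0.21 to 0.46) and RPL12 (0.13, interval -0.15 to 0.42) were of like size. RPL12 was the steadiest, at 1515 to 1553 CPM in shCon and 1661 to 1704 CPM in shSOX4, without overlap. The upper bounds of RPLP1 and RPL12 reach the smallest rise called in other members (0.38), and those of RPLP0 and RPLP2 do not. RPL8, another abundant member, stood at 4912 to 6912 CPM in shCon and 4842 to 5713 CPM in shSOX4 (log2 -0.15, adjusted p = 0.473, edgeR), and RPL28 (-0.10, adjusted p = 0.641) and RPL38 (0.20, adjusted p = 0.347, edgeR) did not pass.

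In the small subunit the largest rise of all 82 genes was that of RPS4X (ENSG00000198034), an X-linked protein of the subunit body. It stood at 569, 507 and 389 CPM in shCon 1, 2 and 3 and at 849, 1174 and 1347 CPM in shSOX4 1, 2 and 3. The mean reached 230% of control, a rise of 1.20 on the log2 scale (SE 0.193, 95% interval 0.79 to 1.61, adjusted p = 0.000473, edgeR), and the call held in all 17 alternatives. RPS3A (ENSG00000145425) stood at 1003, 1075 and 920 CPM in shCon and at 2014, 1643 and 1907 CPM in shSOX4, a rise of 0.89 (SE 0.146, adjusted p = 0.000533, edgeR). Its groups were far apart relative to their spread, with SDs of 77.8 and 191 CPM.

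RPS13 and RPS26 followed. RPS13 stood at 385, 351 and 313 CPM in shCon and at 499, 578 and 617 CPM in shSOX4 (log2 0.69, adjusted p = 0.00455, edgeR). RPS26, which sits where messenger RNA leaves the subunit, stood at 382, 428 and 478 CPM in shCon and at 647, 677 and 723 CPM in shSOX4 (log2 0.67, adjusted p = 0.00447, edgeR). Neither gene had overlapping groups. TSR2, the dedicated chaperone that delivers the RPS26 protein and a gene chosen after its values were seen, stood at 43.7, 47.8 and 51.7 CPM in shCon and at 76.6, 73.8 and 79.0 CPM in shSOX4 and rose by a like amount (log2 0.68, adjusted p = 0.00646, edgeR).

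RPS6 is the ribosomal protein phosphorylated by S6 kinase downstream of mTOR. Its values were 1039, 916 and 743 CPM in shCon and 1029, 1348 and 1497 CPM in shSOX4, so that shSOX4 1 lay below shCon 1, the only overlap among the 31 genes called higher. Its rise of 0.52 (SE 0.175, adjusted p = 0.0343, edgeR) did not hold when 1 library was dropped in 4 of 6 cases: without shCon 2 (0.0782), shCon 3 (0.0731), shSOX4 2 (0.108) or shSOX4 3 (0.153). RPS27A, made as a fusion with ubiquitin, rose by 0.45 (adjusted p = 0.036, edgeR), also lost in 4 of these 6 cases (adjusted p 0.0697 to 0.112). RPS15A (0.62) and RPS7 (0.58) kept their calls in all 6. RPS23 (0.51) lost its call in 3 and RPS24 (0.46) in 4, with adjusted p values of 0.0502 to 0.0826. RPS23 had a value of only 0.03 (adjusted p = 0.913, limma) on log2(FPKM + 1), so its rise rests on the counts.

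RPS28, a small protein near the exit of the messenger RNA channel, was the single small subunit gene that fell. It stood at 575, 560 and 645 CPM in shCon and at 404, 392 and 472 CPM in shSOX4, without overlap, and fell by 0.49 (SE 0.151, 95% interval -0.81 to -0.17, adjusted p = 0.0234, edgeR). The call was lost without shCon 2 (adjusted p = 0.0576), shSOX4 1 (0.0549) or shSOX4 2 (0.116). Among abundant small subunit genes not called were RPS2, with 5266 to 7896 CPM in shCon and 5584 to 7273 CPM in shSOX4 (log2 -0.02, 95% interval -0.37 to 0.33), RPS18 (0.21, adjusted p = 0.224) and RPS10 (0.36, adjusted p = 0.0829, edgeR). RPS10 passed under total-count scaling (adjusted p = 0.039), without shCon 3 (0.0306) and without both shCon 3 and shSOX4 1 (0.0425).

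**Figure D3:**
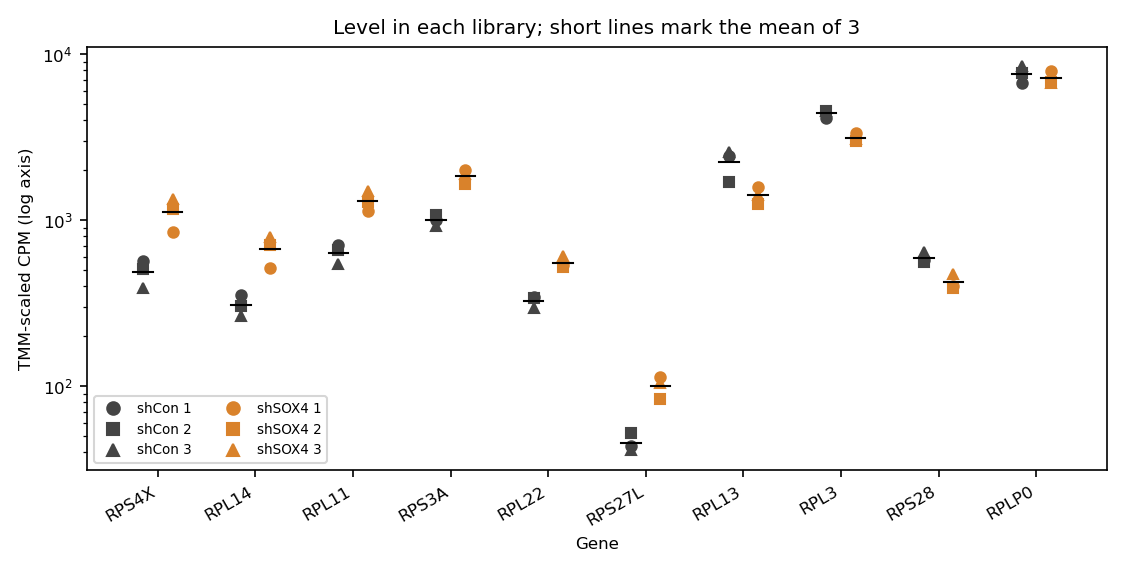
TMM-scaled CPM (vertical log axis) of 10 genes in the 3 shCon libraries (grey) and the 3 shSOX4 libraries (orange), with the replicate number as the symbol and the mean of each group as a short line. RPS4X, RPL14, RPL11, RPS3A, RPL22 and RPS27L lie higher in every shSOX4 library, RPL13, RPL3 and RPS28 lower, and the values of RPLP0 overlap.

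Among the 5 diverged copies, RPS27L and RPL26L1 rose (40%) and the other 3 were not called. This share is near that of all 82 members, of which 37.8% rose and 3.66% fell. Over all features 17% were called higher and 15.8% lower. RPS27L, known as a target of p53 in cells with the normal protein, was the weakest member by FPKM (mean 14.1). It stood at 43.5, 52.1 and 41.1 CPM in shCon and at 114, 84.3 and 104 CPM in shSOX4, a rise of 1.14 (SE 0.179, 95% interval 0.76 to 1.53, adjusted p = 0.000379, edgeR), while its parent RPS27 had a value of 0.07 (adjusted p = 0.759, edgeR). RPL26L1 averaged 96.1 ± 7.71 CPM in shCon and 146 ± 19.4 CPM in shSOX4 (SD, n = 3 each), a rise of 0.61 (adjusted p = 0.0116, edgeR). RPL39L had a value of 0.30 (adjusted p = 0.202), RPL7L1 of -0.20 (adjusted p = 0.51) and RPL22L1 of -0.28 (adjusted p = 0.276, edgeR).

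Copy and parent were compared within each library by FPKM, which is scaled to length. RPL22 protein is known to lower its copy RPL22L1 by binding the copy's transcript. FPKM of RPL22L1 was 42.1%, 58.2% and 68.1% of that of RPL22 in shCon 1, 2 and 3 and 28.5%, 23.5% and 25.5% in shSOX4 1, 2 and 3. All 3 knockdown ratios were below all 3 control ratios, a difference of -1.10 on the log2 scale (exact permutation test, two-sided, p = 0.1, the smallest that 3 against 3 can give; adjusted over 6 pairs p = 0.2). RPS27L moved the other way, from 0.266%, 0.318% and 0.222% of RPS27 to 0.675%, 0.707% and 0.723% (log2 difference 1.40, exact permutation p = 0.1, adjusted p = 0.2). By CPM the difference was 1.09. The length implied by the deposited count and FPKM was 5413 bases for RPS27L and 390 for RPS27, so these percents depend strongly on it. Mean CPM was 45.6 for RPS27L and 1097 for RPS27 in shCon, and 101 and 1151 in shSOX4. Implied lengths also differed for RPL7L1 (4522) and RPL7 (1181). RPL39L was 17.7%, 20.1% and 21.5% of RPL39 in shCon and 15.7%, 16.5% and 13.5% in shSOX4 (log2 difference -0.37, exact permutation p = 0.1, adjusted p = 0.2). In the other 3 pairs the groups overlapped: RPL26L1 to RPL26 (0.34, exact permutation p = 0.2), RPL36AL to RPL36A (-0.31, exact permutation p = 0.2) and RPL7L1 to RPL7 (-0.34, exact permutation p = 0.4). With 3 libraries a group no pair could pass a threshold of 0.05.

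**Figure D4:**
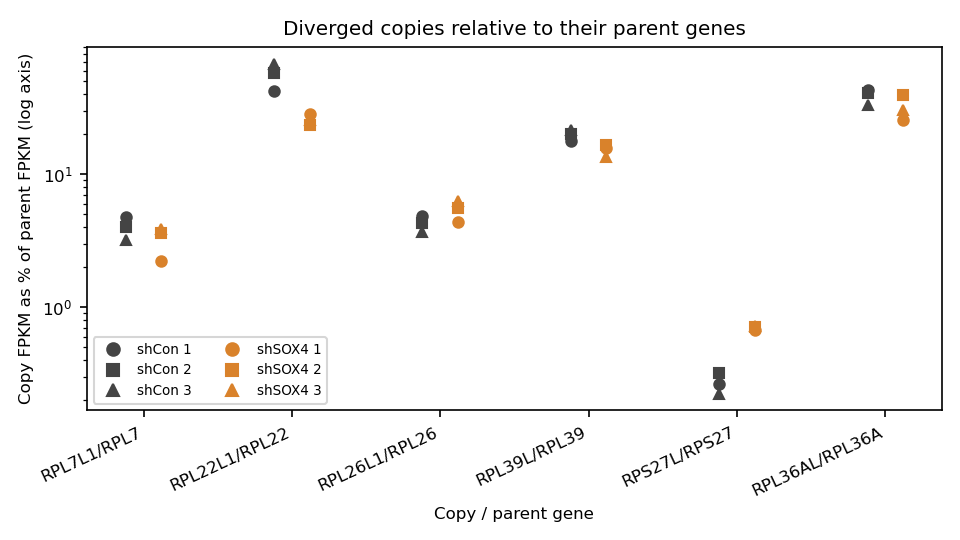
FPKM of each diverged copy as a percent of its parent's FPKM (vertical log axis) in the 3 shCon (grey) and 3 shSOX4 (orange) libraries, the symbol giving the replicate number. The RPL22L1 to RPL22 ratio is 42.1 to 68.1% in shCon and 23.5 to 28.5% in shSOX4, and the RPS27L to RPS27 ratio is higher in every shSOX4 library.

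The 82 genes did not form a single block across libraries. In shSOX4, library 1 was the highest of the 3 for 54 genes and the lowest for 13; in shCon, library 3 was the highest for 41 and the lowest for 27. These are the libraries that stand apart over the whole table, and they moved alike: 37 genes were highest in both and 12 lowest in both. Across the 82 genes, which share the same libraries, the departure of shCon 3 from its group and that of shSOX4 1 from its group had a Spearman correlation of 0.61, the same as over all features (0.61). Of the 31 genes called higher, 9 had their lowest knockdown value in shSOX4 1, among them RPS4X, RPL14, RPL11, RPS13, RPL5, RPS26, RPL23A and RPS6, and 17 their highest, among them RPL35, RPL36A, RPL39 and RPS15A. In RPS4X the departures were -0.47 for shCon 3 and -0.57 for shSOX4 1, and in RPL35 they were 0.37 and 0.56. What sets these libraries apart was not tested.

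**Figure D5:**
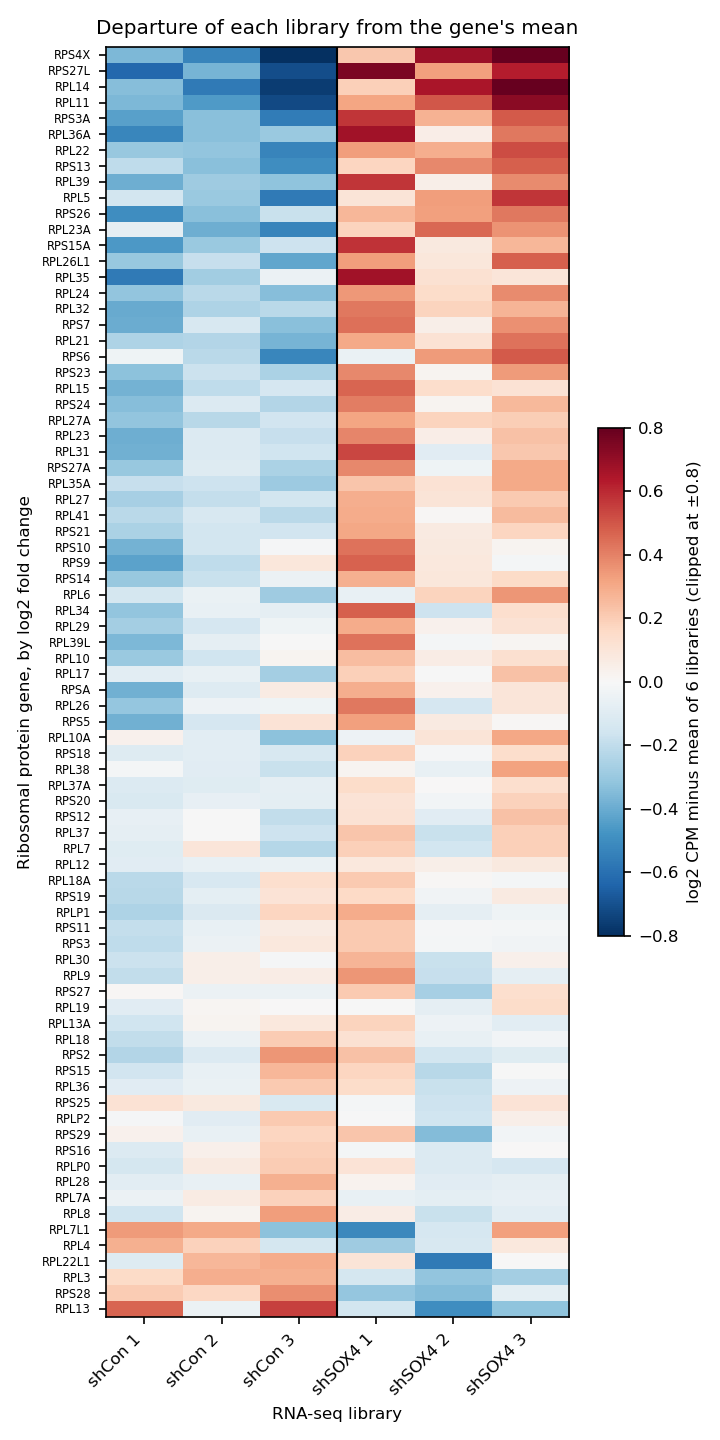
Log2 CPM of 80 of the 82 genes (rows, ordered by log2 fold change) in each of the 6 libraries (columns), less that gene's mean over the 6, with the colour scale clipped at 0.8 either way. Upper rows are low in shCon and high in shSOX4, and within each group shCon 3 and shSOX4 1 depart together, downward in RPS4X, RPL14 and RPL11 and upward in RPL35.

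Levels differed widely between members. Of the 100 features with the highest mean FPKM, 53 were ribosomal protein genes. Mean FPKM was lowest in the copies RPS27L (14.1) and RPL7L1 (46.9), and among members that are not copies it ran from 162 for RPL14 to 6454 for RPLP0 and 6676 for RPL35, but for only 54 of the 82 genes did the ratio of count to FPKM stay within 5% between libraries, so the order between close neighbours is uncertain. The order also depends on the lengths used: that implied for RPL14 was 3209 bases, and its mean of 490 CPM was above that of RPL38 (345). Of the 41 genes under the members' median FPKM 20 rose and 2 fell (median 0.45), and of the 41 at or above it 11 rose and 1 fell (median 0.21). Over all features 17% were called higher and 15.8% lower. Across the 82 genes, measured in the same libraries, the Spearman correlation of mean CPM with log2 fold change was -0.32, against -0.06 over all features, and that of the length implied by the deposited count and FPKM was -0.02.

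Some ribosomal protein genes fall outside the symbol pattern. Among these, FAU, which encodes a small subunit protein fused to a ubiquitin-like one (0.36, adjusted p = 0.095), RPL36AL (0.35, adjusted p = 0.105) and RACK1, a scaffold on the small subunit head (-0.02, adjusted p = 0.941, edgeR), did not pass.

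Of 18 measured genes whose transcripts are known as TOP messages but encode no ribosomal protein, 5 rose and 1 fell (median 0.15). Over all features 17% were called higher and 15.8% lower. The number called in either direction is near the background of 32.8%, and the balance of directions was not tested. NPM1, a nucleolar chaperone, stood at 556, 512 and 363 CPM in shCon and at 835, 1086 and 1324 CPM in shSOX4 (log2 1.18, adjusted p = 0.000639, edgeR). BTF3 (0.76) and EEF1B2 (0.59) rose. EEF2, the elongation factor that moves the ribosome along, went the other way, averaging 5047 ± 886 CPM in shCon and 2683 ± 408 CPM in shSOX4 (SD, n = 3 each; log2 -0.91, adjusted p = 0.00095, edgeR).

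Genes that build the ribosome changed mostly upward where they changed. Of 42 assembly factors of the small subunit and its precursor 15 rose and none fell (median 0.31), among them NGDN (1.16), WDR75 (1.34), the kinase gene RIOK2 (1.25) and NOL11 (0.99). Of 48 factors of the large subunit 19 rose and 1, DDX54, named after its value was seen, fell (median 0.36); NMD3, the export adaptor of the large subunit, rose by 1.14, RRP15 by 1.26, NOC3L by 1.10 and BRIX1 by 0.99. Among 12 genes of the particles that modify ribosomal RNA 3 rose (median 0.14), with NOP58, a core protein of the methylation-guide particles, at 8.50 ± 0.80 CPM in shCon and 27.9 ± 4.94 CPM in shSOX4 (SD, n = 3 each), rising by 1.71 (adjusted p = 3.6e-05, edgeR), beside NOP56 (0.65) and NOP10 (0.51). Of 20 genes of RNA polymerase I, which makes the ribosomal RNA precursor, and its factors 2 rose, TWISTNB (1.19) and POLR1A (0.55), with a median of 0.23. Of 15 genes listed for chaperones, import receptors and modifying enzymes that act on ribosomal proteins 5 rose and 2 fell. First by adjusted p among those that rose were the import receptor genes TNPO1 (1.28) and IPO7 (1.09) and the enzyme genes NAA15 (1.04) and PRMT3 (0.65). Those that fell were PDCD2L (-0.50) and PDCD2 (-0.48), a pair named after their values were seen. Against these, 17% of all features were called higher and 15.8% lower, with a median of -0.01.

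Among known regulators of ribosomal protein genes and messages calls went both ways, beside 17% higher and 15.8% lower over all features. Of 26 genes of mTORC1 and TOP translation 5 rose and 2 fell (median 0.03). LARP4, an RNA-binding relative of LARP1, rose by 1.00 and LAMTOR5 by 0.74. EIF4EBP1, the translation repressor that mTOR inactivates, averaged 443 ± 90.9 CPM in shCon and 252 ± 52.7 CPM in shSOX4 (SD, n = 3 each), a log2 change of -0.81 (adjusted p = 0.00561, edgeR). DEPTOR, an inhibitor of the complex, fell by 0.96. Of 11 genes of the MYC network 2 rose, MGA (1.12) and MXD1 (0.88), and 2 fell, MYCL (-1.58) and MXD3 (-0.69), with a median of -0.18. Of 14 genes for ribosome splitting and quality control 4 rose and 1 fell (median 0.25): ASCC3 (1.25), NEMF (0.86) and ABCE1 (0.71), which splits finished ribosomes, were higher, and ANKZF1 was lower (-0.78).

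Sequence upstream of the start was examined for short motifs on both strands, in the 250 bases before and 50 after each annotated start. CCGGAAG, the core bound by ETS factors such as GABP, was present for 24 of the 66 ribosomal protein genes (36.4%) and 12.2% of all genes. It is shown in capitals in the 100 bases before the start of 2 genes that rose and 1 that fell.
RPL11 (chr1:23691706-23691805, plus strand): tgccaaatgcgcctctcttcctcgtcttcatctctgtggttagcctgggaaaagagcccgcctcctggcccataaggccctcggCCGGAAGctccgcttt
RPS27L (chr15:63157478-63157577, minus strand): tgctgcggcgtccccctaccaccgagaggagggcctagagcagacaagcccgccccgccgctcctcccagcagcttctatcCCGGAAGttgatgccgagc
RPL3 (chr22:39319624-39319723, minus strand): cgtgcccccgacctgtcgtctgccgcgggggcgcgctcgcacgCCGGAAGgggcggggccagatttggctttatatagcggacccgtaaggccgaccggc

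The motif thus stands near the start of genes of either direction: of the 24 genes 8 were called higher and 1 lower. Of all 66 members with an entry 25 were called higher and 3 lower, and over all features 17% were higher and 15.8% lower. The median log2 fold change was 0.33 with the motif against 0.26 without it. AAGATGGC, the YY1 core, was present in 7 genes (10.6%, against 3.52% of all genes). CACGTG, the E-box bound by MYC, was present in 5 (7.58%, against 8.77%), with none called higher and 1 lower. TATAAA was present in 6 (9.09%, against 14.0%): RPL3 and RPS28, which fell, and RPL22L1, RPL7A, RPLP0 and RPS3, which were not called. The SOX core AACAAT was present in RPL14 and RPL35A (3.03%, against 12.2%), and the longer form AACAAAG in RPLP0 and RPS26 (3.03%, against 6.35%). A match of these letters is a description of the window and not evidence of binding. Promoter GC content had a median of 58.7% in the 25 genes called higher that had an entry, 59.7% in the 38 not called and 67.7% in the 3 called lower; over all features with an entry the medians were 63.0%, 65.3% and 67.0%. The part of GC content in the results was not tested.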

How the data were processed

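The deposited table gives, for each gene and library, whole-number counts that the authors did not normalize, per the file headers, and FPKM, in which the authors also divided by gene length and depth. It also holds the authors' adjusted p-value and log2 fold change, per the file headers. Per the submitters' processing notes the build was hg19 and the tools included STAR and HISAT2, with no roles stated. The counting program, its strand setting, its treatment of reads with several matches and the authors' test were not given in the sources used here. Columns lettered NC and SH were read as shCon and shSOX4.

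All 13527 features were fitted with edgeR 4.0.16 in R 4.3.3 (TMM, filterByExpr, quasi-likelihood F test, two-sided, group as the only term), with Benjamini-Hochberg adjustment over all of them; the filter removed none. CPM are TMM-scaled. The script was first tested on simulated data, in which far fewer genes changed than were called here. It recovered 8% of genes with a true log2 change of 0.5 and 75% of those with 1. A gene not called may therefore still have changed. No library was a duplicate (chi-square per degree of freedom 28.8 to 139). Depth is given as total counts; intervals are 95% and come from the fit. RefSeq tables of GRCh38.p14 gave promoter bases and neighbouring genes only.

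The members, lists and tests were chosen with earlier results of these data known. Named were every called member, the 5 highest and 5 lowest uncalled members by FPKM, the copies, the stalk and 5S lists, and up to 4 genes of each other list by adjusted p; RPL17, RPL19, RPL4 and RPS27 complete a list or pair outside this rule, and a few genes the rule names are not reported here. Alternatives were RLE, total-count and member-free scaling, other filters, DESeq2 1.42.0, limma-voom (limma 3.58.1), limma on log2(FPKM + 1), a replicate block, leaving out the 1116 loci named newGene, each library, or shCon 3 with shSOX4 1.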

Additional observations from a re-analysis of the deposited data

How the results depend on the processing

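The 3 summary values, members called higher (31), members called lower (3) and the median log2 fold change (0.28), stayed within 1.5 times or the replicate spread under RLE, total-count and member-free scaling, other filters, DESeq2, limma-voom, limma on log2(FPKM + 1) and without newGene loci, where 31 to 36 members were higher, 3 lower and the median 0.27 to 0.29. Leaving out 1 library gave 19 to 36 higher (19 without shCon 1, 19 without shCon 2, 20 without shSOX4 3), 0 to 3 lower (1 without shCon 2, 0 without shSOX4 2) and a median of 0.22 to 0.36. The share of all features called moved too, from 10.4% to 19.6% higher and from 8.12% to 17.1% lower. Without both shCon 3 and shSOX4 1, 36 were higher, 3 lower and the median was 0.26, beside 21.4% higher and 19.5% lower over all features. With the replicate block 19 were higher and 2 lower, beside 13.5% and 11.5% of all features. Equal numbers did not pair the libraries, since deviations of same-numbered libraries correlated at -0.29, 0.16 and -0.29. Of the 31 genes called higher 17 passed in all 17 alternatives and 14 were lost in at least 1 fit that left out 1 library; none of the 3 called lower passed in all. No called gene changed direction. Uncalled values near zero did: RPS2 was 0.026 on log2(FPKM + 1) and 0.052 without both shCon 3 and shSOX4 1, and ran from -0.13 to 0.18 when 1 library was left out, positive without shCon 3, shSOX4 2 or shSOX4 3. Leaving out 1 library gave -0.25 to 0.0036 for RPL8, -0.17 to 0.031 for RPL28 and -0.14 to 0.017 for RPLP2, each positive only without shCon 3, and RPLP2 was 0.00064 without both. The cause was not tested. The difference in the share of counts, 1.85 percentage points, kept its direction in all 8 alternatives run on it. The number of libraries, 3 a group, limits the precision.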

Other observations

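RefSeq places at least 1 small nucleolar RNA (snoRNA) gene inside 29 of the 82 ribosomal protein genes; such RNAs are cut from introns and guide the modification of ribosomal RNA. Of these hosts 10 were called higher and 2 lower (median log2 fold change 0.18), and of the 53 members without such a gene 21 were higher and 1 lower (median 0.32). Over all features 17% were called higher and 15.8% lower. Most hosts were not called in either direction, and those named next were picked from the called ones. RPL13, which holds SNORD68, and RPL3, which holds SNORD43, SNORD83A, SNORD83B and SNORD139, fell. RPS3A, which holds SNORD73A and SNORD73B, and RPS13, with SNORD14A and SNORD14B, rose. The table's rows are host genes, so the snoRNAs themselves were not analysed here.

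The 5 genes outside the group whose log2 CPM followed the mean of the 82 most closely over the 6 libraries were NDUFA4 and UQCRH (Pearson r 0.994 and 0.993), FZD5 (0.993), ATP5MG (0.992) and IMMP1L (0.991). These are descriptions over 6 libraries of 2 groups. UQCRH, a subunit of respiratory complex III, stood at 369, 427 and 412 CPM in shCon and at 670, 507 and 595 CPM in shSOX4 (log2 0.55, adjusted p = 0.0157, edgeR), and like RPL35 it was highest in shSOX4 1. FZD5 was not called (0.55, adjusted p = 0.125, edgeR).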
